A study of Mus musculus with 12 samples.

Results

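The 10 genes described here are the Cyp4 fatty acid omega-hydroxylases Cyp4a10, Cyp4a14, Cyp4a31, Cyp4a32, Cyp4a12a, Cyp4a12b, Cyp4f13, Cyp4f14, Cyp4f15 and Cyp4v3. They were chosen by symbol from the 55357 genes of a liver RNA-seq count table, and all 10 passed the filter on low counts. The table holds 12 libraries of male C57BL/6J mice with or without PPARα in hepatocytes, on chow or on CDAHFD, a high-fat diet that lacks choline and supplies defined amino acids in place of protein. WT mice were PPARa fl/fl AlbuminCre +/+, so the controls carried the floxed alleles as well. KO mice were PPARa fl/fl AlbuminCre Tg/+, in which the albumin promoter drives Cre in hepatocytes and other liver cells keep the gene. Mice entered the diet at 7 weeks of age and were killed after 6 weeks, at 13 weeks of age. The groups were WT chow (n = 4), KO chow (n = 2), WT CDAHFD (n = 3) and KO CDAHFD (n = 3). KO chow replicate 2 carries the number 3 in its other label.

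CYP4 enzymes are haem proteins of the endoplasmic reticulum that hydroxylate the terminal (omega) carbon of a fatty acid. The omega-hydroxy acid is oxidised by alcohol and aldehyde dehydrogenases to a dicarboxylic acid, which is then shortened in peroxisomes. In liver this omega-oxidation is a minor path beside mitochondrial beta-oxidation, and Cyp4a10 and Cyp4a14 are textbook genes induced by PPARα ligands and by fasting. Cyp4a12a is known as an arachidonic acid omega-hydroxylase that is higher in males, the Cyp4f enzymes also act on leukotrienes, and Cyp4v3 is the mouse counterpart of the human gene behind Bietti crystalline dystrophy.

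Libraries held 29906785 to 43551003 counts, and the 10 genes took between 0.0760% and 0.198% of them. Levels are given as CPM, library counts scaled to the same total with TMM factors (a scaling that assumes most genes do not change). TMM factors differed by group, from 0.729 to 0.827 in WT chow against 1.03 to 1.26 in the other 8 libraries. Ppara lay between 96.2 and 237.8 CPM in WT chow, at 14.4 and 38.7 CPM in KO chow, between 59.5 and 75.5 CPM in WT CDAHFD and between 20.7 and 51.9 CPM in KO CDAHFD. Ppara was lower in KO chow than in WT chow (log2 fold change -2.68 ± 0.50 SE, adjusted p = 0.00111), whereas under CDAHFD the KO value was -0.94 ± 0.42 with adjusted p = 0.547. Gene-level counts do not show which exons the reads came from. Clock genes split the libraries inside groups. A clock score (log2 level of Dbp and its co-regulated genes minus that of Arntl and its like) was below 0 in 8 libraries and above 0 in WT chow replicates 3 and 4, KO chow replicate 2 and KO CDAHFD replicate 3. The time of death is not given in the sources used here, so values from the 8 libraries are given beside results that they change. These include 1 KO chow library, which the fit assumes to vary like the other groups. Deviations of Ppara from its group means went with those of Dbp (r = 0.87 over the 12 libraries, which share their scaling), and in the 8 libraries Ppara was lower in KO than in WT on chow (-2.90, adjusted p = 0.000329) and under CDAHFD (-1.29, adjusted p = 0.0463). Hepatocyte markers (9 genes, none at 0) reached 100660 to 116250 CPM in WT chow against 79855 and 89563 CPM for the pair from KO chow. On CDAHFD they summed to 51172 to 61585 CPM in WT and 47705 to 64433 CPM in KO. Summed macrophage and Kupffer cell markers (10 genes, none at 0) ran from 355.8 to 651.1 CPM in WT chow and from 1257 to 2085 CPM over the other groups. Summed stellate cell and fibroblast markers (10 genes, none at 0) ran from 245.7 to 368.7 CPM in WT chow and from 1400.2 to 2517 CPM elsewhere, and summed cholangiocyte markers (8 genes, none at 0) from 79.2 to 114.5 CPM in WT chow, at 196.7 and 312.6 CPM in KO chow, and from 402.4 to 626.5 CPM in WT and 624.9 to 947.5 CPM in KO on CDAHFD. In whole liver, fewer cells of a type and less RNA per cell cannot be told apart.

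The Cyp4a genes lie on GRCm38 chromosome 4, in the order Cyp4a12a (chr4:115299046-115332815), Cyp4a12b (chr4:115411624-115439034), Cyp4a14 (chr4:115486200-115496142), Cyp4a10 (chr4:115518264-115533649), Cyp4a31 (chr4:115563649-115579015) and Cyp4a32 (chr4:115600969-115621602). Cyp4a14 is on the minus strand and the others are on the plus strand. Cyp4f15 (chr17:32685627-32703352, plus strand), Cyp4f14 (chr17:32905070-32917342, minus strand) and Cyp4f13 (chr17:32924688-32947402, minus strand) share a stretch of chromosome 17, and Cyp4v3 (chr8:45304944-45333216, minus strand) stands alone. The coding sequence of the haem-binding loop, which carries the cysteine that holds the haem iron in P450 enzymes, shows how close the copies are. Each stretch is 30 bases of the GENCODE M21 transcript, 5′ to 3′ on the coding strand, and crosses an exon junction. Capitals mark bases that differ from Cyp4a10.
Cyp4a10 (chr4:115529502-115532543): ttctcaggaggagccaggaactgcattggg
Cyp4a31 (chr4:115574950-115577948): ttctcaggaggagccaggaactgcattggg
Cyp4a32 (chr4:115614880-115621446): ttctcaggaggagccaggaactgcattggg
Cyp4a12a (chr4:115328986-115331846): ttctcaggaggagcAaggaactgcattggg
Cyp4a12b (chr4:115435240-115438069): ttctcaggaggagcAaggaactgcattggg
Cyp4a14 (chr4:115487299-115489805): ttctcaggaggaTcAaggaactgcattggg
Cyp4f13 (chr17:32924942-32925340): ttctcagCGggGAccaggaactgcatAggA
Cyp4f14 (chr17:32905666-32906065): ttctcGgCGggaCccaggaactgcatAggA
Cyp4f15 (chr17:32702398-32702801): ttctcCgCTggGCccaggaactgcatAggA
Cyp4v3 (chr8:45307107-45308407): ttTtcTgCTggaCcTCgAaactgTattggT

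Cyp4a10, Cyp4a31 and Cyp4a32 are identical over this loop, as are Cyp4a12a and Cyp4a12b, so a read confined to it cannot be assigned among the copies. Cyp4v3 differs from Cyp4a10 at 10 of the 30 bases. Over the whole coding sequence Cyp4a10 was 97.2% identical to Cyp4a32 and 96.6% to Cyp4a31, and Cyp4a12a was 98.5% identical to Cyp4a12b. Cyp4a14, by contrast, was 75.1% to 76.1% identical to the other Cyp4a genes. The Cyp4f genes were 74.8% to 80.0% identical to each other. Of all 100-base stretches of its annotated transcripts, Cyp4a12a shared 35.8% and Cyp4a12b 36.2% with another gene, in each case the other copy. Cyp4a32 shared 18.2%, Cyp4a10 12.2% and Cyp4a31 7.33%, while Cyp4a14 and the Cyp4f genes shared none. Cyp4v3 shared 5.77% with Gm45753, an overlapping gene that received 21 counts over all libraries. Read length and the handling of reads that fit several places are not given in the sources used here, so the split of counts inside the 2 groups of close copies is uncertain.

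**Figure D1:**
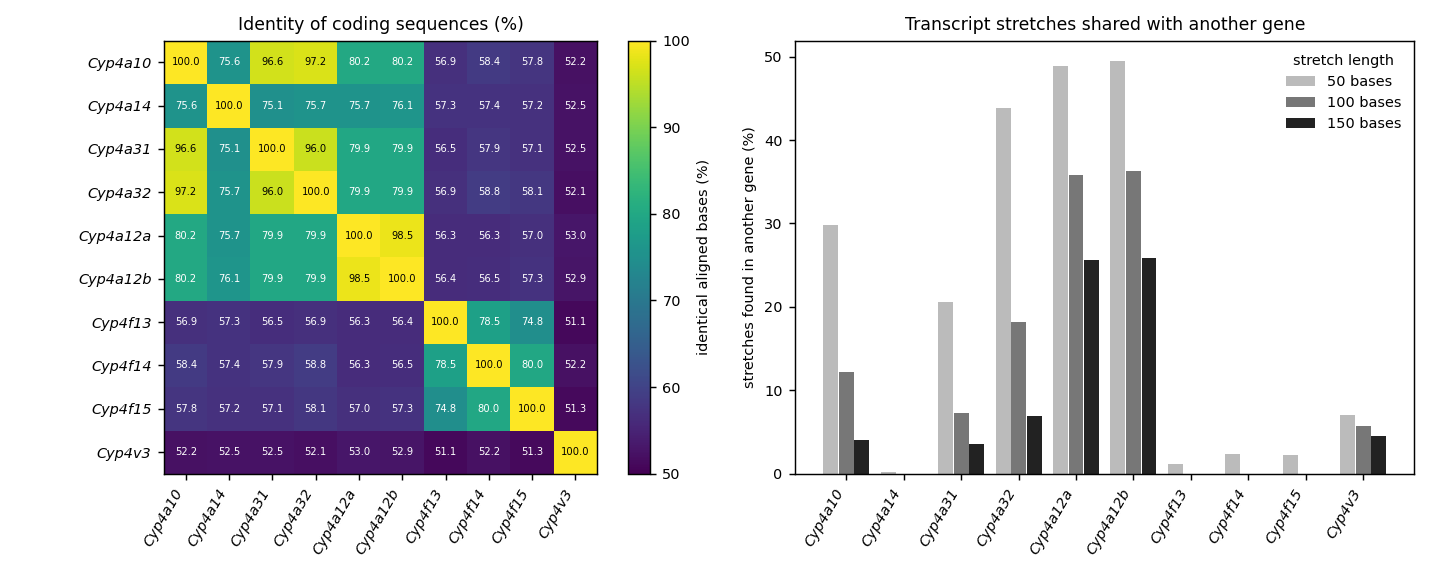
Left, percent of identical bases in pairwise alignments of the coding sequences of the 10 genes. Right, percent of transcript stretches of 50, 100 or 150 bases that also occur in another annotated gene. Cyp4a12a and Cyp4a12b share most, 48.9% and 49.4% at 50 bases, and Cyp4a14 shares 0.235% at 50 bases and none at 100.

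Where the copies do differ, reads can tell them apart. The 60-base window of the coding sequence with the most differences among Cyp4a10, Cyp4a31 and Cyp4a32 has 9 positions at which the 3 are not all alike (capitals), and all windows lie in single exons on the plus strand.
Cyp4a10 (chr4:115519640-115519699): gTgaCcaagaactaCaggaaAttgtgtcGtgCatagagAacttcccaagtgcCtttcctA
Cyp4a31 (chr4:115565020-115565079): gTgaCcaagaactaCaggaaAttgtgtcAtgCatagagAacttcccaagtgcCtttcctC
Cyp4a32 (chr4:115602270-115602329): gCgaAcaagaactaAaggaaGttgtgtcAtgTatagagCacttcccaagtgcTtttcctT
For the other pair the best window held 4 differences, out of 23 over the whole coding sequence.
Cyp4a12a (chr4:115326628-115326687): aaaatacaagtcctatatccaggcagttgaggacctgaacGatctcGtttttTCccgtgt
Cyp4a12b (chr4:115432881-115432940): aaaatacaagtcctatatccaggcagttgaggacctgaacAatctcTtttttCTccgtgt

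Summed per kb of exon, the 10 genes were at 812 ± 56.4 CPM per kb (mean ± SD) in WT chow (n = 4), 317 ± 14.2 in KO chow (n = 2), 339 ± 11.1 in WT CDAHFD (n = 3) and 223 ± 19.5 in KO CDAHFD (n = 3). No library of WT chow came below 759 CPM per kb, and none of the other groups exceeded 352. The makeup of the sum also differed. The 6 Cyp4a genes held 40.1% ± 8.75 of the sum in WT chow and 33.9% ± 3.11 in KO chow. On CDAHFD their share was 46.2% ± 2.77 for WT against 18.5% ± 7.43 for KO. Within them, Cyp4a12a and Cyp4a12b together fell from 20.6% ± 4.48 of the sum in WT chow to 1.13% ± 0.358 in KO CDAHFD. Cyp4v3 kept between 22.9% and 32.4% of the sum on average in every group.

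**Figure D2:**
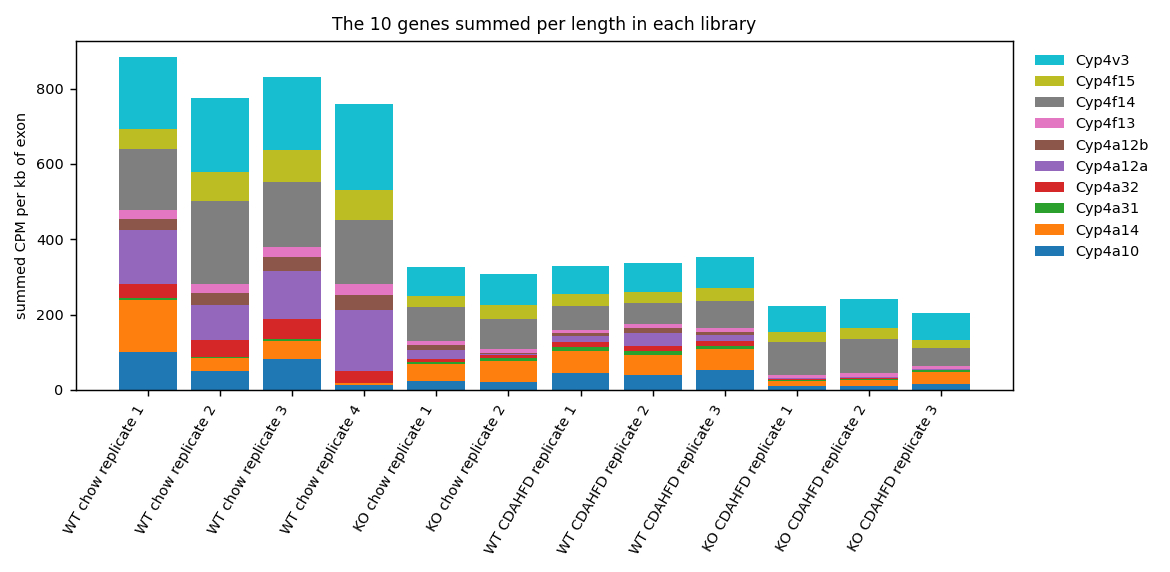
Level per length (CPM per kb of exon, linear axis) of the 10 genes stacked in each of the 12 libraries. WT chow libraries reach 759 to 883 CPM per kb and KO CDAHFD libraries 204 to 243, with hardly any Cyp4a12a, Cyp4a12b or Cyp4a32 visible in the latter.

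Per length, Cyp4v3 (202 ± 17.6 CPM per kb) and Cyp4f14 (182 ± 25.2) led in WT chow, with overlapping libraries. Cyp4a12a followed at 131 ± 28.9, with its libraries below those of Cyp4f14 and above those of Cyp4f15 (73.9 ± 14.4). Cyp4f15, Cyp4a10, Cyp4a14, Cyp4a32 and Cyp4a12b then overlapped from neighbour to neighbour, from 73.9 down to 35.4 CPM per kb on average, and Cyp4a31 was last at 3.75 ± 1.78. In KO CDAHFD, Cyp4f14 (74.5 ± 23.4) and Cyp4v3 (71.9 ± 6.26) still led, while Cyp4a12a (1.697 ± 0.773), Cyp4a32 (1.34 ± 0.199) and Cyp4a12b (0.856 ± 0.284) were at the bottom and overlapped from neighbour to neighbour. The place of Cyp4f13 depended on the length used, since its 14 annotated transcripts cover 4441 bases and the longest has 1752: its level in WT chow was 24.6 or 62.2 CPM per kb.

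Cyp4a32, a close copy of Cyp4a10, gave the clearest separation between groups. In WT chow it was at 60.2, 69.8, 81.8 and 46.0 CPM, in KO chow at 11.7 and 13.4 CPM, in WT CDAHFD at 19.8, 21.5 and 18.2 CPM, and in KO CDAHFD at 1.77, 2.03 and 2.38 CPM. The 4 groups did not overlap, and KO CDAHFD stood far below the rest. Cyp4a32 fell 5.13-fold in KO chow against WT chow (log2 fold change -2.36 ± 0.21, adjusted p = 3.87e-06) and 3.25-fold in WT CDAHFD against WT chow (-1.7 ± 0.18, adjusted p = 5.41e-06). Under CDAHFD it was 9.61-fold lower in KO than in WT (-3.26 ± 0.21, adjusted p = 1.73e-05), which ranked 1 by p among the 17358 genes tested. Within KO livers CDAHFD lowered it 6.09-fold (-2.61 ± 0.22, adjusted p = 7.53e-05). The fall on CDAHFD was larger in KO than in WT by 0.91 ± 0.27 on the log2 scale (interaction -0.91, adjusted p = 0.0297), but this call was lost in 6 of the 12 fits that left out 1 library, with adjusted p up to 0.0995. In the 8 libraries with a clock score below 0 the KO value under CDAHFD was -3.38 (adjusted p = 3.83e-05) and the interaction was -0.92 (adjusted p = 0.0147).

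Cyp4a12a, the male-biased arachidonic acid omega-hydroxylase, was at 342, 226, 308 and 393 CPM in WT chow, 63.0 and 5.63 CPM in KO chow, 36.3, 81.9 and 39.2 CPM in WT CDAHFD, and 4.51, 5.75 and 2.07 CPM in KO CDAHFD. WT chow stood above every other library, and the 2 KO chow libraries were far apart: replicate 1 lay among the WT CDAHFD libraries and replicate 2 among the KO CDAHFD libraries. Cyp4a12b, its close copy, showed a like split. It had 75.3, 76.5, 88.2 and 99.4 CPM in WT chow, 25.8 and 5.36 CPM in KO chow, 20.2, 36.2 and 19.8 CPM in WT CDAHFD, and 1.697, 2.83 and 1.62 CPM in KO CDAHFD. For this gene KO chow replicate 2 lay above all KO CDAHFD libraries and below all WT CDAHFD libraries. The mean log2 level of 16 other male-biased liver genes was 6.11 in KO chow replicate 1 and 4.96 in replicate 2, against 8.98 to 9.85 in WT chow.

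Cyp4a12a fell in KO chow against WT chow (log2 fold change -3.21 ± 0.77, adjusted p = 0.00536), in WT CDAHFD against WT chow (-2.60 ± 0.63, adjusted p = 0.00392), and in KO CDAHFD against KO chow (-3.06 ± 0.72, adjusted p = 0.0277). Under CDAHFD it was 12.8-fold lower in KO than in WT (-3.68 ± 0.70), although the adjusted p of 0.0467 rose above 0.05 in 10 of the 12 fits without 1 library and reached 0.19. Cyp4a12b fell in the same 4 comparisons, by -2.45 ± 0.50 (adjusted p = 0.00198), -1.74 ± 0.41 (adjusted p = 0.00335), -2.93 ± 0.50 (adjusted p = 0.00682) and, under CDAHFD, -3.64 ± 0.48 or 12.4-fold (adjusted p = 0.00447). The size of the KO chow values rested on which library was used: without KO chow replicate 1 Cyp4a12a was at -5.80 against WT chow, and without replicate 2 at -2.33. For Cyp4a12b the values were -3.97 and -1.71. In the 8 libraries with a low clock score, which leave out KO chow replicate 2, the KO chow values were -2.17 (adjusted p = 0.00998) for Cyp4a12a and -1.55 (adjusted p = 0.0133) for Cyp4a12b. Without KO chow replicate 1 the fall from KO chow to KO CDAHFD was no longer called, at -0.45 (adjusted p = 0.777) for Cyp4a12a and -1.38 (adjusted p = 0.0954) for Cyp4a12b. The Cyp4a12a call was also lost without KO CDAHFD replicate 1 (-3.14, adjusted p = 0.0824) and without KO CDAHFD replicate 3 (-2.74, adjusted p = 0.0954). The interaction of Cyp4a12b was not called (-1.19 ± 0.63, adjusted p = 0.206), but it was in the 8 libraries with a low clock score (-1.94, adjusted p = 0.018) and without KO chow replicate 2 (-1.93, adjusted p = 0.00693), and it was 0.33 without KO chow replicate 1. In KO CDAHFD against KO chow, 5 of 8 cholangiocyte markers were higher and 2 of 9 hepatocyte markers lower. Of 10 macrophage and Kupffer cell markers, 2 were higher and 1 lower. Among all genes, 3.76% were called higher and 2.44% lower. The part of these markers in the falls of Cyp4a12a, Cyp4a12b and Cyp4a32 there was not tested. When the counts of Cyp4a12a and Cyp4a12b were summed, the sum was lower in all 4 comparisons, with -3.66 ± 0.61 (adjusted p = 0.0247) under CDAHFD.

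Cyp4a14 and Cyp4a10, the PPARα-induced omega-hydroxylases, spread most in WT chow. Cyp4a14 was at 357, 88.3, 123 and 11.9 CPM in WT chow, a 30.1-fold range, but at 118 and 143 CPM in KO chow and 157, 137 and 149 CPM in WT CDAHFD. KO CDAHFD had 39.2, 40.1 and 84.6 CPM. The WT chow libraries thus enclosed all 8 others, while KO CDAHFD lay below both KO chow and WT CDAHFD without overlap. None of the comparisons of Cyp4a14 passed the test. The KO chow value was -0.15 ± 0.79 (adjusted p = 0.896), the WT CDAHFD value was 0.02 ± 0.69 (adjusted p = 0.98), and the KO value under CDAHFD was -1.43 ± 0.75 (adjusted p = 0.641). These standard errors leave room for changes of more than 2-fold in either direction on chow. In the 8 libraries with a clock score below 0 the KO chow value was -0.91 (adjusted p = 0.281), the WT CDAHFD value was -0.59 (adjusted p = 0.275) and the KO value under CDAHFD was -1.90 (adjusted p = 0.133).

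Cyp4a10 was at 213, 106, 176 and 26.97 CPM in WT chow, 50.3 and 47.1 CPM in KO chow, 92.9, 85.9 and 109 CPM in WT CDAHFD, and 19.6, 24.3 and 33.1 CPM in KO CDAHFD. Apart from WT chow replicate 4, all WT libraries lay above all KO libraries. The KO value was -1.42 ± 0.56 on chow (adjusted p = 0.0604) and -1.90 ± 0.51 under CDAHFD (adjusted p = 0.208), neither of which passed. Without WT chow replicate 4 both passed, at -1.75 (adjusted p = 0.000644) and -1.88 (adjusted p = 0.0072), and so did WT CDAHFD against WT chow (-0.77, adjusted p = 0.0214). Without WT chow replicate 1, the highest of its group, the KO value on chow was -1.07 (adjusted p = 0.129), that under CDAHFD was -1.88 (adjusted p = 0.15) and WT CDAHFD against WT chow was at -0.085 (adjusted p = 0.895). The 8 libraries with a clock score below 0 keep WT chow replicate 1 and leave out WT chow replicates 3 and 4. In them the values were -1.66, -2.13 and -0.73. WT chow replicate 4 had the lowest value of its group for Cyp4a10, Cyp4a14, Cyp4a31 and Cyp4a32 and the highest for Cyp4a12a, Cyp4a12b, Cyp4f13 and Cyp4v3. Deviations of Cyp4a10 and Cyp4a14 from their group means moved together over the 12 libraries (Pearson r = 0.96), as did those of Cyp4a10 and Cyp4a31 (r = 0.90), whereas those of Cyp4a10 and Cyp4v3 ran against each other (r = -0.67). These points share libraries and scaling, and they rest mostly on WT chow. Cyp4a10 ranged 7.88-fold within WT chow and at most 1.68-fold within any other group. For Cyp4a14 these ranges were 30.1-fold and at most 2.16-fold. Cyp4a14 shares only 0.235% of its 50-base stretches with another gene.

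On average Cyp4a31 was the lowest of the 10 per length in every group but KO CDAHFD. In KO chow and WT CDAHFD its libraries overlapped those of the next gene up. It was the only member called higher in any of the 4 comparisons. It was at 12.5, 7.18, 13.7 and 4.22 CPM in WT chow, 10.6 and 16.4 CPM in KO chow, 24.7, 22.8 and 22.0 CPM in WT CDAHFD, and 7.35, 8.29 and 9.80 CPM in KO CDAHFD. WT CDAHFD stood above the other 9 libraries. Cyp4a31 rose 2.46-fold in WT CDAHFD against WT chow (log2 fold change 1.30 ± 0.31, adjusted p = 0.00339), and the response to the diet differed between genotypes (interaction -1.97 ± 0.47, adjusted p = 0.00968). Without KO chow replicate 2 the interaction was -1.62 (adjusted p = 0.0543). The KO value under CDAHFD was -1.45 ± 0.33, with adjusted p = 0.121 in edgeR and 0.00337 in DESeq2, and it passed in the 8 libraries with a low clock score (-1.57, adjusted p = 0.0137).

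**Figure D3:**
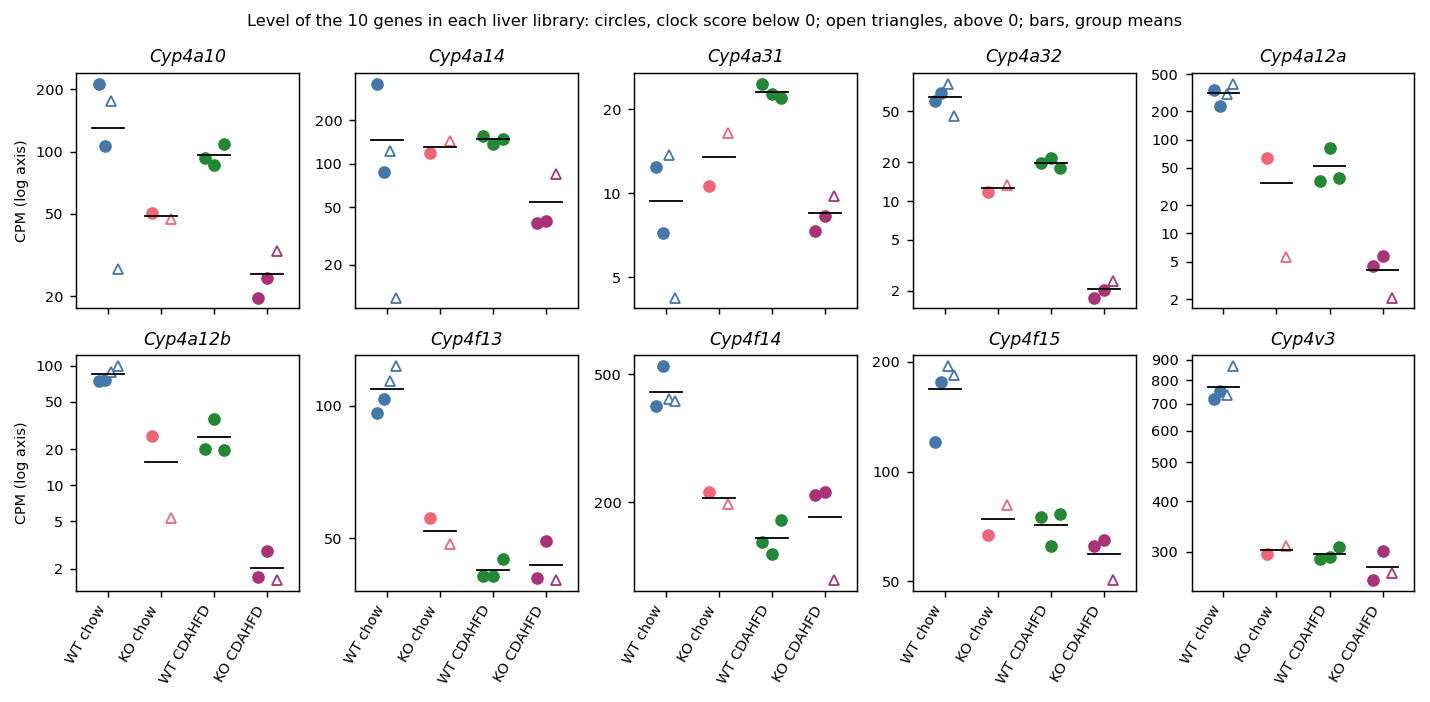
CPM (log axis) of each of the 10 genes in the 12 libraries, by group, with the group mean as a bar. Filled circles are libraries with a clock score below 0 and open triangles those above. Cyp4a32 separates the 4 groups, Cyp4a14 in WT chow runs from 11.9 to 357 CPM, and the Cyp4f genes and Cyp4v3 separate WT chow from the rest.

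The split of counts between close copies changed with group. Cyp4a32 took 22.1% to 63.0% of the counts of Cyp4a32 and Cyp4a10 in WT chow, 14.3% to 20.0% in WT CDAHFD, 18.9% and 22.1% in KO chow, and only 6.71% to 8.27% in KO CDAHFD. The 3 KO CDAHFD shares, from 883 to 1490 counts, had exact 95% intervals between 5.49% and 10.3%. Cyp4a31 took 5.54% to 13.5% of its counts with Cyp4a10 in WT chow and 16.9% to 27.2% in the other groups. Cyp4a12a took 74.7% to 82.0% of its counts with Cyp4a12b in WT chow, and 51.2% to 72.7% elsewhere. The share of Cyp4a32 was thus lowest in the diet-fed KO livers. The summed counts of Cyp4a10, Cyp4a31 and Cyp4a32, which do not depend on the split, were lower in KO than in WT on chow (-1.45 ± 0.40, adjusted p = 0.0113) and under CDAHFD (-1.94 ± 0.36, adjusted p = 0.0455). Their sum was not called in WT CDAHFD against WT chow (-0.56 ± 0.33, adjusted p = 0.178) or in KO CDAHFD against KO chow (-1.05 ± 0.39, adjusted p = 0.129), and its interaction was -0.49 ± 0.51 (adjusted p = 0.541). Cyp4a10 held most of that sum in every library but WT chow replicate 4, so the sum follows Cyp4a10 and does not test the falls of Cyp4a32, the rise of Cyp4a31 or their interactions. Whether the split of counts between the copies plays a part in these was not tested. Intervals cover counting error only.

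**Figure D4:**
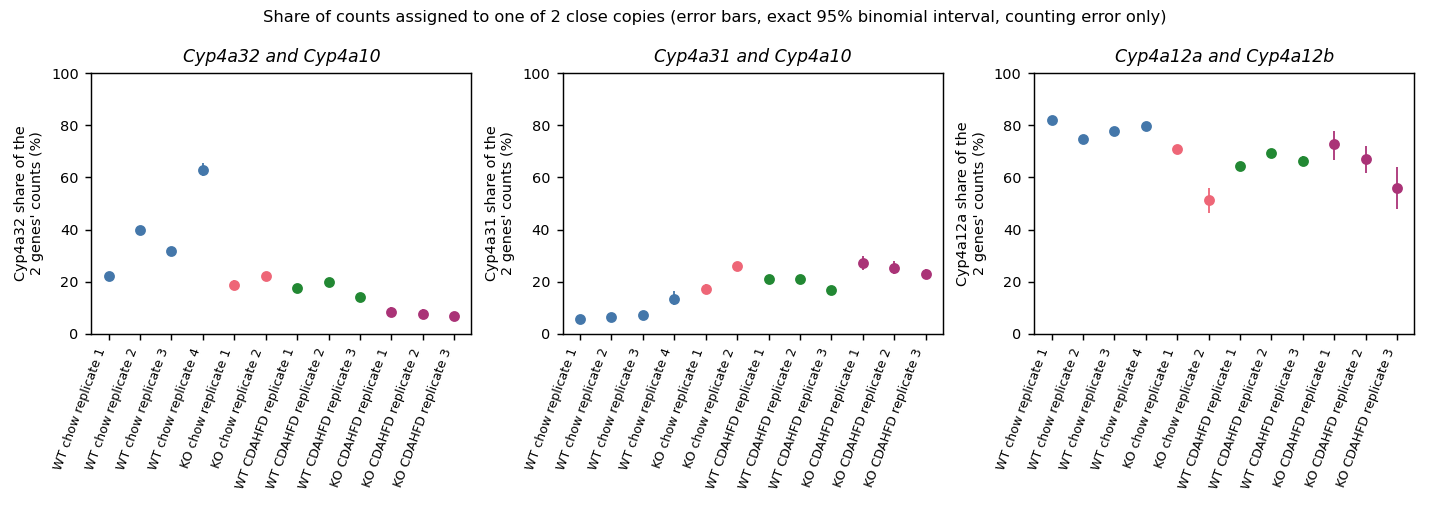
Share of counts (percent) given to Cyp4a32 beside Cyp4a10, to Cyp4a31 beside Cyp4a10, and to Cyp4a12a beside Cyp4a12b in each library, with exact 95% binomial intervals. The Cyp4a32 share is 6.71% to 8.27% in KO CDAHFD and 22.1% to 63.0% in WT chow.

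The Cyp4f genes and Cyp4v3 behaved alike: each was highest in WT chow and lay at a similar lower level in the other 3 groups. Cyp4f14, which acts on leukotrienes, was at 398, 531, 420 and 413 CPM in WT chow, 215 and 197 CPM in KO chow, 151, 138 and 177 CPM in WT CDAHFD, and 211, 215 and 115 CPM in KO CDAHFD. Cyp4v3, a fatty acid omega-hydroxylase, was at 720, 753, 736 and 868 CPM in WT chow, 297 and 310 CPM in KO chow, 287, 292 and 308 CPM in WT CDAHFD, and 255, 301 and 266 CPM in KO CDAHFD. For both genes no WT chow library overlapped any other library. Cyp4f13 ran from 96.0 to 123 CPM in WT chow and from 40.2 to 55.7 CPM over the other 8 libraries, and Cyp4f15 from 121 to 194 CPM against 50.5 to 81.1 CPM. Inside groups, deviations of Cyp4f14 from the group mean went with those of Arntl (r = 0.73) and against those of Dbp (r = -0.57) over the 12 libraries, which share their scaling, and KO CDAHFD replicate 3, with the lowest Cyp4f14 level, had a clock score above 0. Cyp4v3 was also the steadiest of the 10, with a within-group SD of 0.10 on the log2 scale against 1.30 for Cyp4a14.

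On chow, KO lowered Cyp4v3 2.53-fold (log2 fold change -1.34 ± 0.12, adjusted p = 4.4e-06), Cyp4f15 by -1.19 ± 0.19 (adjusted p = 0.000368), Cyp4f14 by -1.09 ± 0.23 (adjusted p = 0.00239) and Cyp4f13 by -1.07 ± 0.14 (adjusted p = 5.44e-05). In WT livers CDAHFD lowered Cyp4f14 2.83-fold (-1.50 ± 0.20, adjusted p = 5.07e-05), and Cyp4v3, Cyp4f13 and Cyp4f15 by -1.38 ± 0.11, -1.37 ± 0.12 and -1.24 ± 0.17. Scaled by library size alone, these falls were all still called but smaller. For KO on chow they were -0.93 (Cyp4v3), -0.78 (Cyp4f15), -0.69 (Cyp4f14) and -0.66 (Cyp4f13). For CDAHFD in WT they were -0.94 (Cyp4f14), -0.82 (Cyp4v3), -0.80 (Cyp4f13) and -0.68 (Cyp4f15). Between KO and WT on CDAHFD none of these 4 genes passed the test: Cyp4f14 was at 0.21 ± 0.21, Cyp4f13 at 0.04 ± 0.12, Cyp4v3 at -0.11 ± 0.11 and Cyp4f15 at -0.26 ± 0.17. The diet response therefore differed between genotypes, with an interaction of 1.31 ± 0.31 for Cyp4f14 (adjusted p = 0.00818), 1.23 ± 0.16 for Cyp4v3 (adjusted p = 0.000183), 1.10 ± 0.18 for Cyp4f13 (adjusted p = 0.000778) and 0.92 ± 0.25 for Cyp4f15 (adjusted p = 0.0192). The Cyp4f15 call was lost without WT CDAHFD replicate 2 (0.84, adjusted p = 0.0531) and without KO chow replicate 1 (0.78, adjusted p = 0.0917), and with scaling by library size (0.56, adjusted p = 0.0708). In the 8 libraries with a low clock score the 4 interactions lay between 0.93 and 1.56 and all passed, with adjusted p up to 0.0323. Hepatocyte markers moved with these genes on chow and diet. In KO chow 7 of 9 were lower than in WT chow (median -0.67), beside 17.0% of all genes. In WT CDAHFD 9 of 9 were lower than in WT chow (median -0.98), beside 25.0% of all genes. Between KO and WT under CDAHFD none of the 9 was called, with a median of -0.07. Their part in the fall of the Cyp4f genes and Cyp4v3 was not tested.

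Counted over the 10 genes, 7 were lower and none higher in KO chow than in WT chow, where 17.0% of all tested genes were called lower and 22.0% higher. Their median log2 fold change was -1.26 against 0.00 over all genes. In WT CDAHFD against WT chow 7 were lower and 1 higher (median -1.37, against -0.05 over all genes), beside 25.0% lower and 26.1% higher among all genes. In KO CDAHFD against WT CDAHFD 3 were lower, namely Cyp4a32, Cyp4a12a and Cyp4a12b, where 0.271% of all genes (47) were called lower and 0.0864% (15) higher. The same 3 genes were lower in KO CDAHFD than in KO chow, beside 2.44% of all genes lower and 3.76% higher. The interaction was called above 0 for 4 genes and below 0 for 2, with 8.63% and 14.5% of all genes called in those directions. The comparisons share control libraries and are not independent. Scaling by library size alone put the median of all genes at 0.40 in KO chow and 0.51 in WT CDAHFD against WT chow, from 0.00 and -0.05, with 86.0% and 88.6% of calls higher in place of 56.4% and 51.0%. For KO CDAHFD against KO chow it gave 1245 genes higher and 138 lower in place of 652 and 423, and for the interaction 676 and 4268 in place of 1498 and 2513. Under it 7, 8, 2 and 3 members were called in the 4 comparisons in the order above, and the interaction was called above 0 for 3 members and below 0 for 2.

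**Figure D5:**
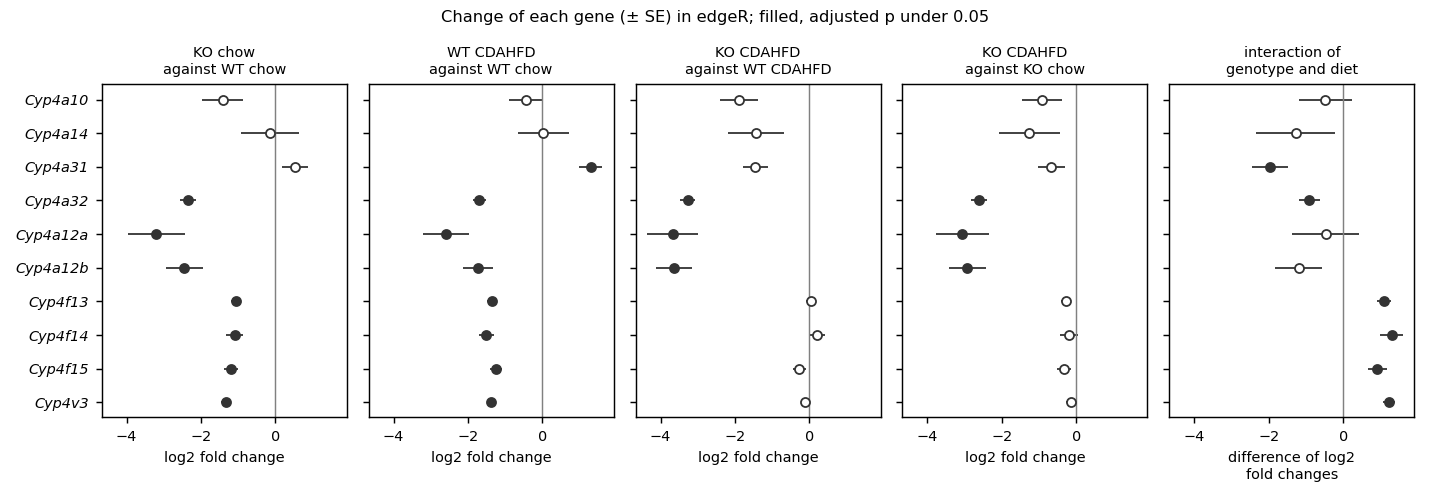
Log2 fold change ± SE of the 10 genes in the 4 comparisons and the interaction of genotype and diet. Filled points have an adjusted p under 0.05. Cyp4a32, Cyp4a12a and Cyp4a12b are filled and below 0 in all 4 comparisons, and the Cyp4f genes and Cyp4v3 are filled in the 2 comparisons with WT chow and above 0 in the interaction.

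Another 17 genes carry a Cyp4 symbol, of which 6 passed the filter and 11 had at most 3 counts in every library. Cyp4f16 went the other way from its neighbours Cyp4f13, Cyp4f14 and Cyp4f15: it lay between 1.19 and 2.76 CPM in WT chow and between 9.77 and 13.2 CPM in the other groups. It rose in KO chow (2.78 ± 0.22, adjusted p = 1.35e-06) and in WT CDAHFD (2.50 ± 0.21, adjusted p = 7.79e-07) against WT chow. Cyp4f18, a leukotriene hydroxylase known from neutrophils, rose in the same comparisons (2.29 ± 0.46 and 2.06 ± 0.42) from between 0.138 and 0.738 CPM in WT chow. Summed neutrophil markers (8 genes, of which 3 were at 0 throughout WT chow) lay between 2.86 and 14.6 CPM in WT chow and between 22.2 and 33.4 CPM elsewhere, and their part in the Cyp4f18 value was not tested. Cyp4b1 fell on CDAHFD in WT (-1.07 ± 0.21, adjusted p = 0.000835) and in KO (-1.16 ± 0.24, adjusted p = 0.0156). Cyp4f17, Cyp4f39 and Cyp4f41-ps passed in none of the comparisons.

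The enzymes that follow the CYP4 step, with the electron donors of P450 enzymes, fell in part with the 10 genes. Of 11 genes listed, 8 were lower and 1 higher in KO chow than in WT chow (median -0.70), and 8 were lower and 2 higher in WT CDAHFD than in WT chow (median -0.56). Of all genes, 17.0% were lower and 22.0% higher in KO chow, and 25.0% and 26.1% in WT CDAHFD. None was called between KO and WT under CDAHFD. The alcohol dehydrogenase Adh4 (-1.26 ± 0.19) and the aldehyde dehydrogenase Aldh2 (-0.94 ± 0.15) fell in KO chow, while Aldh1b1, another aldehyde dehydrogenase, rose (2.44 ± 0.24). Of 20 genes of peroxisomal oxidation, 14 were lower and 3 higher in KO chow (median -0.78), 12 lower and 1 higher in WT CDAHFD (median -0.54), and 4 were lower in KO than in WT under CDAHFD (median -0.42), where 0.271% of all genes were lower. The shares higher in KO chow and WT CDAHFD were below those of all genes. Decr2, the peroxisomal dienoyl-CoA reductase, was lower in KO on chow (-1.98 ± 0.19) and under CDAHFD (-1.58 ± 0.17, adjusted p = 0.00093). Acot3, a peroxisomal acyl-CoA thioesterase, and Abcd2, a peroxisomal fatty acid transporter, rose in KO chow (2.74 ± 0.54 and 2.64 ± 0.47), but Acot3 fell in WT CDAHFD against WT chow (-1.90 ± 0.59, adjusted p = 0.017).

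Of 23 textbook PPARα targets outside the peroxisome, 13 were lower and 6 higher in KO chow than in WT chow (median -0.59), beside 17.0% and 22.0% of all genes, so the share higher was near that of all genes. In WT CDAHFD against WT chow 11 were lower and 6 higher (median -0.48), beside 25.0% and 26.1%, and in KO CDAHFD against KO chow 7 were lower and 4 higher (median -0.43), beside 2.44% and 3.76%. Between KO and WT under CDAHFD 6 were lower and none higher (median -0.46), beside 0.271% and 0.0864%. Acot2, a mitochondrial thioesterase (3.78 ± 0.35), the hormone Fgf21 (2.73 ± 0.63) and the fatty acid receptor Cd36 (2.7 ± 0.22) were the 3 with the largest changes in KO chow, and all 3 rose. Of 16 male-biased liver genes other than Cyp4a12a, 15 were lower in KO chow (median -3.08) and 15 in WT CDAHFD (median -3.66), against none between KO and WT under CDAHFD (median -0.48), where Cyp4a12a and Cyp4a12b were lower. The 3 largest were the urinary protein gene Mup7 (-10.09 ± 1.36), the steroid enzyme gene Hsd3b5 (-7.78 ± 0.85) and Moxd1, which had 1.39 to 125.4 CPM in WT chow and at most 0.0816 CPM in KO chow. Of 11 female-biased genes tested, 4 were higher and 1 lower in KO chow, and 5 higher and 3 lower in WT CDAHFD, each against WT chow. Between KO and WT under CDAHFD 1 was higher and none lower. In KO CDAHFD against KO chow 2 of these genes were higher and 2 lower. Their medians in these 4 comparisons, in that order, were 1.335, 0.90, 1.35 and -0.75. Cyp3a44 had no count in WT chow, so its own fold change against that group has no firm size. Cyp2a4 had 0.0388 to 0.367 CPM in WT chow and 68.8 and 304 CPM in KO chow, Cyp3a44 had 1.65 and 2.94 CPM in KO chow, and Acot3 followed. Among 16 clock genes, 2 were lower in KO chow, Hlf (-1.55 ± 0.41) and Clock (-0.63 ± 0.18), and 3 were lower in WT CDAHFD, which is no larger a share than the 17.0% and 25.0% of all genes. The part of sex-biased and clock expression in the values of the 10 genes was not tested.

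The genes most like each of 4 members over the 12 libraries were ranked by Pearson r of log2 CPM among tested genes averaging 50 counts or more per library. For Cyp4v3 they were Ghr (r = 0.995), the growth hormone receptor, then Zfp595 (r = 0.994) and Cfhr3 (r = 0.991). For Cyp4f14 they were Aspdh (r = 0.991), Tmem250-ps (r = 0.990) and Fndc4 (r = 0.987). For Cyp4a12a they were Adtrp (r = 0.980), the peroxisomal membrane protein gene Pxmp4 (r = 0.967) and Hsd17b12 (r = 0.957), all below the r of 0.986 with Cyp4a12b. For Cyp4a14 the likeness was lower, with Mppe1 (r = 0.840), 6430548M08Rik (r = 0.822) and Gja4 (r = 0.793), above its nearest member Cyp4a10 (r = 0.774). These correlations follow the 4 groups that all genes share and describe these libraries.

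Promoter windows of 300 bases (250 before to 50 after the start, RefSeq, GRCm38.p6) were at hand for 5 of the 10 genes, Cyp4a32, Cyp4f13, Cyp4f14, Cyp4f15 and Cyp4v3. Searched on both strands, none of their 8 windows held the nuclear receptor letters AGGTCA, which 16.3% of 32851 such windows held, nor 2 of them in a row with any 1 base between, which 0.0400% held. At that share 8 windows would rarely hold the repeat, and several of them overlap at Cyp4f14. The search says nothing of sites that vary from these letters or lie outside these windows.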

How the data were processed

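Poly-A RNA from whole liver was sequenced from a non-directional library, so reads carry no strand. Per the labels and the study's methods, reads were checked with FastQC 0.11.5 and aligned to GRCm38 with STAR 2.7.3a. The authors deposited raw counts per Ensembl gene. The counting program, annotation release, read length and treatment of multi-mapping reads are not given in the sources used here. Methods state 3 mice per group, whereas the labels give 4, 2, 3 and 3.

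From the deposited counts, 17358 of 55357 genes passed edgeR's expression filter. One quasi-likelihood fit (edgeR 4.0.16, R 4.3.3, TMM scaling) over the 12 libraries tested each comparison, with Benjamini-Hochberg adjustment over all tested genes and calls at an adjusted p under 0.05. Standard errors are the log2 fold change over the root of F. By the study's methods each library is the liver of 1 mouse. Symbols, lengths and coding sequences came from GENCODE M21, and levels per kb use the union of exons. The script was tested on simulated counts.

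Alternatives were DESeq2 1.42.0, its size factors, library size only, no filter, a newer quasi-likelihood default, a replicate block, a clock score covariate, each library left out, close copies summed, another length and, added after seeing the data, the 8 libraries with a clock score below 0. The members, gene lists and tests were chosen with earlier results of these data known. Named genes are all members, the other tested Cyp4 genes, the 3 largest changes called in KO chow against WT chow per list, and the 3 genes most like each of 4 members. Deposited columns were all used.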

Additional observations from a re-analysis of the deposited data

Results flagged for a closer look

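Cyp4f14 in WT chow had 1 library apart from the other 3, replicate 2 at 531 CPM beside 398 to 420 CPM. The gap was 0.836 of the group's range. This was the only 1 of the 10 members in WT chow so marked, and chance marks about 1 in 20 groups.

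The response to CDAHFD differed between KO and WT livers by a test of the interaction for 6 members. The difference (KO minus WT, log2) was 1.31 for Cyp4f14, 1.23 for Cyp4v3, 1.10 for Cyp4f13 and 0.92 for Cyp4f15, and it was -1.97 for Cyp4a31 and -0.91 for Cyp4a32. With Cyp4a10, Cyp4a31 and Cyp4a32 summed the difference was -0.49 (adjusted p = 0.541), but Cyp4a10 held most of that sum in every library but WT chow replicate 4, and the part of the split of counts between close copies in the last 2 values was not tested.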

How the results depend on the processing

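Beside the 3 members called in KO CDAHFD against WT CDAHFD, 5 were called without the filter, where Cyp4a10 and Cyp4a31 joined. In the low clock score libraries these 2 were at -2.13 and -1.57. Of the 3, Cyp4a12a was no longer called in 10 fits that each left out 1 library. In KO CDAHFD against KO chow the count of 3 ran from 1 to 3 over fits without 1 library. With close copies summed, 1 of 7 units was called there and 5 of 7 in WT CDAHFD against WT chow, where 8 of 10 members had been called. The study's methods name no pairing of the samples. Of 15 same-numbered pairs 3 correlated over 0.1, which in groups this small cannot settle whether the replicate numbers pair samples. Only WT chow has a replicate 4, so a replicate block gives that library a term of its own and it adds nothing to the comparisons. With that block, Cyp4a10 was also called lower in KO chow against WT chow (-1.62, adjusted p = 0.000736), WT CDAHFD against WT chow (-0.76, adjusted p = 0.012), KO CDAHFD against WT CDAHFD (-1.91, adjusted p = 0.0043) and KO CDAHFD against KO chow (-1.05, adjusted p = 0.0403), and Cyp4a31 in KO CDAHFD against WT CDAHFD (-1.47, adjusted p = 0.0311). The edgeR fit without that library made the same calls except Cyp4a10 in KO CDAHFD against KO chow (-0.9, adjusted p = 0.0687). Cyp4a12a in KO CDAHFD against WT CDAHFD was at -3.76 (adjusted p = 0.0783). Its fall in KO CDAHFD against KO chow (-2.74, adjusted p = 0.0914) and the Cyp4f15 interaction (0.85, adjusted p = 0.0598) were not called either with that block. Some values that were not called changed sign. Cyp4a14 in WT CDAHFD was at -0.26 with the replicate block, -0.59 in the low clock score libraries and between -0.35 and 1.002 without 1 library, and in KO chow at 0.20 by library size and between -0.53 and 0.82 without 1 library. By library size, Cyp4a10 in WT CDAHFD was at 0.083 and Cyp4v3 in KO CDAHFD against KO chow at 0.056. The Cyp4a12a interaction was at 0.10 with the clock covariate and between -1.35 and 2.12 without 1 library, that of Cyp4a12b between -1.93 and 0.33. Without 1 library, Cyp4f13 was between -0.067 and 0.087 for KO against WT under CDAHFD, and Cyp4f14 between -0.34 and 0.047 for KO CDAHFD against KO chow. The cause was not tested. KO chow had 2 libraries, which limits the precision of its comparisons.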
